A study of Mus musculus with 12 samples.

Results

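The genes that encode the subunits of the oxidative phosphorylation complexes were followed in the hypothalamus of male ICR mice, an outbred strain, after chronic voluntary alcohol drinking from adolescence to adulthood. They were chosen by name on an Agilent whole mouse genome array: every probe whose gene symbol began with Nduf, Uqcr, Cox4 to Cox8 or Atp5, or was Sdha, Sdhb, Sdhc or Sdhd. The names gave 86 genes on 125 probes, of 27827 gene names and 41174 probes on the array, with 39 genes of complex I, 4 of complex II, 7 of complex III, 19 of complex IV and 17 of complex V. Of these, 5 carry a name of the family and encode no subunit: Ndufaf1 and Ndufaf2 (assembly factors of complex I), Cox4nb (now Emc8, a part of a membrane complex of the endoplasmic reticulum that lies beside Cox4i1), Atp5s and Atp5sl.

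Mice were 3 weeks old when the drinking tubes were introduced. Control mice had water in both tubes, and alcohol mice had one tube of water and one of 5% or 10% alcohol. RNA of 9 water mice was combined into 3 pools, and RNA of 19 alcohol mice into 9 pools of 1 to 3 mice, which the labels call low, early high and late high drinkers, with 3 pools each. In the paper, water pools and pools that drank less held 3 mice each, and pools that drank more held fewer. Pool size therefore went with drinking, and the tests did not allow for it. The labels do not give the alcohol strength of a pool, they place the end of drinking at day 57 and decapitation at day 51, and each pool was measured once on a 1-color array, so p-values measure the spread between pools.

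Oxidative phosphorylation makes most of the ATP of a neuron. Complex I (NADH dehydrogenase) and complex II (succinate dehydrogenase) pass electrons to ubiquinone, complex III (the cytochrome bc1 complex) passes them to cytochrome c, complex IV (cytochrome c oxidase) hands them to oxygen, and complex V (ATP synthase) uses the proton gradient that results. Complex II is the only one that is also an enzyme of the tricarboxylic acid cycle and has no subunit encoded in mitochondrial DNA. Transcription of the nuclear genes of these complexes is known to involve the factors NRF1, GABP (an ETS factor), YY1 and Sp1.

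The 12 arrays lay on 3 slides. Slide 1 held water pools 1 to 3 and low pool 1, slide 2 held low pools 2 and 3 and early high pools 1 and 2, and slide 3 held early high pool 3 and late high pools 1 to 3, with slide 1 scanned on a later day than the others. Water and late high pools therefore never shared a slide, and their difference and a difference between slides cannot be told apart within a slide. On each array 29072 to 34398 spots cleared the scanner's background test (called well above background here), and the arrays correlated at r = 0.979 to 0.996 over 29521 probes. The hypothalamic markers (9 of the 10 listed genes were found by name, among them Hcrt, Pmch, Avp, Oxt, Agrp and Pomc) were well above background on all 12 arrays, and so were all 6 neuronal markers.

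For the genes that the comparisons turn on, the first 30 of the 60 bases of each probe are shown with its position in mm9, the build of the array files, to make plain which stretch of the gene was read. The annotation of that build was not used here, so no exon is named. In each line the name of the gene is followed by the sequence, 5′ to 3′, in lower case with no letters singled out.
Sdhb (chromosome 4, 140522514 to 140527081, plus strand): aatgcagacgtacgaggtggatctgaataa
Sdhc (chromosome 1, 173059657 to 173059716, minus strand): ccacatttgactgatttgtgctgagggtca
Ndufa4 (chromosome 6, 11850423 to 11850482, minus strand): ccgcacaattttccacttaagcaggaaata
Ndufab1, brightest probe (chromosome 7, 129235131 to 129235190, minus strand): ttcctgatatagatgcagagaagttaatgt
Atp5b, brightest probe (chromosome 10, 127527255 to 127527314, plus strand): acaagagccttgattgaagatgtgatgttc
Atp5b, next brightest probe (chromosome 10, 127522569 to 127522628, plus strand): catggtggttactctgtatttgctggtgtt
Atp5g1 (chromosome 11, 95934924 to 95934983, minus strand): ccgacgggaattccagaccagtgtcatttc
Atp5g2 (chromosome 15, 102493444 to 102493503, minus strand): cagaggccatggggctcttttgcctaatgg
Atp5g3 (chromosome 2, 73746519 to 73746578, minus strand): ccgaagactgtagtactggtgtcatggaaa
Atp5g1, Atp5g2 and Atp5g3 encode the same mature c subunit of the ATP synthase ring and were read by unlike probes: over the 122 probe sequences compared, the longest run of bases shared by probes of different genes was 14. The probe of Sdhb spans 2 separate stretches of the genome, as its start and end show.

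Promoters of the set were read from the RefSeq table for GRCm38.p6, in which 70 of the 86 genes had a window of 250 bases before and 50 after the start (the first listed start of each gene). On either strand, GCGCNTGCG (for NRF1) was in 20 of the 70 windows (28.6%), against 6.59% of all 27025 promoters. CCGGAAG (ETS) was in 16 (22.9% against 9.12%), AAGATGGC (YY1) in 10 (14.3% against 2.88%), GGGCGG (Sp1) in 31 (44.3% against 35.9%) and TATAAA in 7 (10.0% against 14.2%). YY1 letters were found in 7 of 34 complex I and 3 of 16 complex V promoters and in 0 of the 20 promoters of complexes II, III and IV. A match of letters is a description and does not show that a factor binds. The 200 bases before the start are shown for the complex II genes in the table, since that complex stood lowest among the late high drinkers, and for Ndufb10, a complex I gene that stood higher there. Capitals mark the letters of the 5 motifs on either strand. None of the matches shown overlap.
Sdha (chr13:74350241-74350440, minus strand): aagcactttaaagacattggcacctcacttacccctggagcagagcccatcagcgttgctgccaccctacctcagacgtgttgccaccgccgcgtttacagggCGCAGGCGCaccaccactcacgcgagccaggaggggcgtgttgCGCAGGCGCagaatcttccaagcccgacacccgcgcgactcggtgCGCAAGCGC
Sdhb (chr4:140961071-140961270, plus strand): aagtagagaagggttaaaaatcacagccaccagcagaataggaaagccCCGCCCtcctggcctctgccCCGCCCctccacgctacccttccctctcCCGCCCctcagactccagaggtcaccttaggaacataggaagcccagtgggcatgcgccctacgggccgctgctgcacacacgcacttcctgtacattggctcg
Sdhd (chr9:50603850-50604049, minus strand): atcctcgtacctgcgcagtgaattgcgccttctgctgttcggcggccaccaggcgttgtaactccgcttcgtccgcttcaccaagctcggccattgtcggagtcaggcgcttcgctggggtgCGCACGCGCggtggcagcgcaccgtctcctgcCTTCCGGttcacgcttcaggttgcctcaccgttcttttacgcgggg
Ndufb10 (chr17:24724424-24724623, minus strand): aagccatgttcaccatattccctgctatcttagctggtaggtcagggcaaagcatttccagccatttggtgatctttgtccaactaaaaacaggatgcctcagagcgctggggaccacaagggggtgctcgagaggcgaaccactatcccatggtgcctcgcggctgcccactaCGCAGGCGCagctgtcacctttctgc
In the 200 bases shown, Sdha held 3 NRF1 matches, Sdhb 3 Sp1 matches, Sdhd 1 NRF1 and 1 ETS match, and Ndufb10 1 NRF1 match. Over the whole window Sdhb also had an ETS match and Sdhd an Sp1 match.

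Each gene was read on its brightest probe, as log2 intensity minus the 75th percentile of the array, so that a level of 0 equals that percentile and a difference of 1 is a 2-fold change. A probe's signal also depends on its sequence, so levels of different genes were not ranked. Of the 86 genes, 85 passed the filter on low values. The exception was Cox8c, a testis isoform of complex IV subunit 8, which was well above background on none of the arrays. Of the 85, 80 lay above the 75th percentile of their arrays, as did 32.3% of all probes tested. The genes were read on their brightest probe and the probes tested were not so chosen. That choice adds to this share and to the median level that follows. The median SD within groups was 0.0781 log2 units over the 85 genes, whose median level was 4.45, and 0.138 over 31622 probes, whose median level was -1.59.

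Isoforms of complex IV that are known from heart and skeletal muscle or as inducible forms were also on the array. Cox4i2, the isoform induced by low oxygen, cleared the background on 2 water and 3 alcohol arrays, and its levels ran from -7.55 to -3.16. Cox8b, a muscle isoform, was read between -4.59 and -4.02, and its water and alcohol arrays overlapped. Cox7a1, another muscle isoform, was read between 0.72 and 1.00, with overlapping water and alcohol arrays too. Cox6a2, the muscle form of subunit 6a, stood at 0.26, 0.40 and 0.47 in the water pools and at 0.44, 0.86 and 0.98 in the low pools. It was 0.38, 0.43 and 0.56 in the early high and 0.54, 0.56 and 1.04 in the late high pools. The 3 late high arrays all lay above the water arrays, and the early high arrays did not. The summed level of the striated muscle markers was 1.53 to 1.70 times the 75th percentile in water and 1.69 to 2.05 in low pools. It was 1.53 to 1.87 in early high and 1.40 to 1.70 in late high pools. Of the 8 markers listed, 1 stayed at background on every array. The part of muscle RNA in the Cox6a2 values was not tested. Their partners Cox6a1 (7.18 to 7.40), Cox4i1 (6.45 to 6.73) and Cox8a (6.47 to 6.74), which most tissues use, had arrays that overlapped between water and each alcohol group.

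Taken over all alcohol pools against water, no gene of the set passed the test: 0 of 85 were below an adjusted p of 0.05 (limma, Benjamini-Hochberg over 32376 probes), as was 0% of all probes, and the smallest adjusted p in the set was 0.819. At an unadjusted p under 0.05 were 6 genes (7.06%), against 5.53% of all probes. Of these, 5 were higher in alcohol pools (5.88%, against 3.85% of all probes) and 1 was lower (1.18%, against 1.68%). With scaling by the median 0 were higher and 1 lower, beside 3.28% and 2.8% of all probes. With no scaling between arrays 2 were higher and 0 lower, beside 4.1% and 0.954%. None of the 85 genes had all 9 alcohol arrays above all 3 water arrays, or all below, while 0.982% and 0.325% of probes did. The median difference of the set was 0.02 log2 units, close to that of all probes (0.03), and 54 of 85 differences were above 0 (59.6% of all probes).

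The 6 genes came from 3 complexes. Ndufa4, a small subunit named for complex I and since assigned to cytochrome c oxidase, had the smallest unadjusted p. Its levels were 5.14, 5.03 and 4.97 in the water pools and ran from 5.13 to 5.48 in the alcohol pools, with a median of 5.36. Only 1 alcohol array, low pool 1, lay within the water range. The fitted difference was 0.26 ± 0.07 (SE, limma adjusted p = 0.819). Atp5b, the catalytic beta subunit of the ATP synthase, differed by 0.27 ± 0.09 (limma adjusted p = 0.819), and Atp5c1, its central gamma subunit, by 0.16 ± 0.06. The c subunit gene Atp5g3 differed by 0.18 ± 0.08. Ndufs3, a core subunit of the peripheral arm of complex I, had the highest difference (0.38 ± 0.16), and its water pools were far apart at 2.87, 2.54 and 2.19. Without water pool 3 that difference was 0.21 and without water pool 1 it was 0.55. The 1 lower gene was Sdhc, a membrane anchor of complex II, at -0.16 ± 0.07 (limma adjusted p = 0.819).

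Without water pool 1, 12 genes (14.1%) were at an unadjusted p under 0.05, against 4.45% of all probes. Without water pool 3, 1 gene (1.18%) was, against 3.73%. With the slide as a fixed block, 0 of the 6 genes kept an unadjusted p under 0.05, where 2.1% of all probes were at that level. The set's median difference was then -0.03, beside -0.01 over all probes.

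By complex, 4 of the 5 groups of genes were centred near the median of all probes in the alcohol pools, and that of complex II lay below it. Median differences in alcohol against water were 0.03 log2 units for complex I (26 of 39 genes above 0), 0.03 for complex III (5 of 7), 0.03 for complex IV (13 of 18 tested) and 0.02 for complex V (10 of 17). In complex II the median difference was -0.09, with 4 of 4 genes below 0. With the slide as a fixed block it was 0.00, with 2 of 4 genes below 0, and the medians of complexes I, III, IV and V were -0.02, -0.08, -0.05 and -0.04, beside -0.01 over all probes. Members of a complex are no replicates, and no p is given for a complex as a whole.

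**Figure D1:**
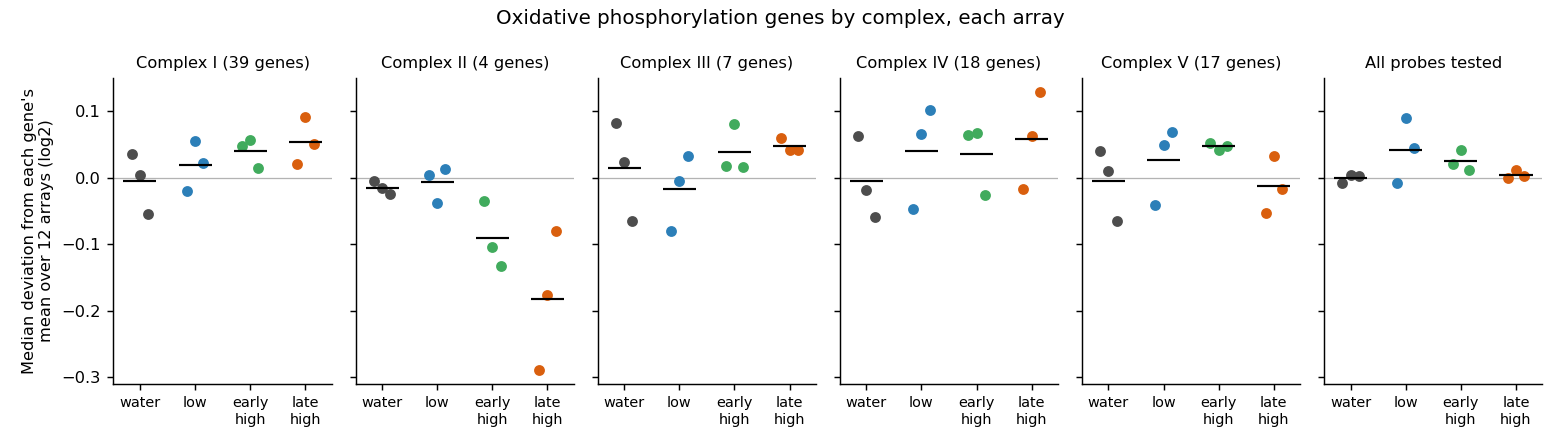
For each array (dots, with black lines as group means) the median deviation of a complex's genes from each gene's mean over the water pools is plotted by group. Values are in log2 units, with all probes tested at the right. The axis label names the mean over 12 arrays, but the values are relative to the water mean. Water pools therefore lie close to the reference by construction. The complex II values lie between -0.025 and -0.005 in water pools and between -0.289 and -0.08 in late high pools, while late high pools of complexes I, III, IV and V overlap the water pools.

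In late high drinkers against water, 0 of 85 genes were below an adjusted p of 0.05 (limma, 31622 probes), as was 0% of all probes, and the smallest adjusted p was 0.0912. At an unadjusted p under 0.05 were 15 genes (17.6%), close to the 15.9% of all probes. Among them, 12 were higher (14.1%, against 6.97% of all probes) and 3 lower (3.53%, against 8.94%). With no scaling between arrays 25 were higher and 0 lower, while 14.5% of all probes were higher and 2.73% lower and the median of all probes was 0.13. With scaling by the median 8 were higher and 1 lower, beside 6.30% and 5.58% of all probes. The 3 late high arrays all lay above the 3 water arrays for 16 genes (18.8%, against 12.5% of probes) and all below for 7 (8.24%, against 13.5%). With the slide as a fixed block 2 of the 15 genes, Ndufab1 and Cox4nb, kept an unadjusted p under 0.05. Without late high pool 2 or without water pool 3 there were 8 genes (9.41%) at that level in place of 15, against 11.4% and 11.7% of all probes. Without water pool 1 there were 21 (24.7%, against 15.9%).

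Of complex II, which joins the tricarboxylic acid cycle to the respiratory chain, all 4 genes were lower in late high pools than in water, with a median difference of -0.24 against 0.00 over all probes. Sdhc stood at 2.17, 2.18 and 2.29 in water, at 2.17, 2.21 and 2.20 in low, at 2.04, 2.0 and 2.02 in early high and at 1.97, 1.90 and 1.99 in late high pools. On this scale all 6 high drinker arrays lay below all 6 arrays of water and low drinkers. Scaled by the median instead, they lay below the water arrays but above low pool 2. Without scaling, early high pool 3 (12.86) and late high pools 1 and 3 (12.82 and 12.84) lay above water pool 2 (12.81) and low pools 2 and 3 (12.79 and 12.78), and the late high difference from water was -0.14 (limma adjusted p = 0.48). The difference was -0.26 ± 0.05 in late high against water (limma adjusted p = 0.105) and -0.20 ± 0.05 in early high against water (limma adjusted p = 0.89). Within slide 2, the early high pools were at -0.18 relative to the low pools, and within slide 3 the late high pools were at -0.06 relative to the 1 early high pool. With the slide as a fixed block the late high difference was -0.29 (limma adjusted p = 0.656).

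Sdhb, the iron-sulfur subunit that carries electrons to ubiquinone, was at 3.24, 3.21 and 3.18 in water, 3.18, 3.14 and 3.26 in low and 3.11, 3.09 and 3.13 in early high pools. In late high pools it was at 2.88, 2.86 and 3.18, so that 2 arrays were low and the third, before rounding just under the lowest water array, was not. The difference was -0.24 ± 0.08 (limma adjusted p = 0.208). Without late high pool 3 it was -0.34 (limma adjusted p = 0.0298). Sdha, the flavoprotein that holds the succinate site, was between 2.71 and 2.88 in water and at 1.84, 2.97 and 2.83 in late high pools. Its difference of -0.24 ± 0.24 rested on late high pool 1, and its other 2 probes differed by 0.00 and 0.12. Sdhd, the other membrane anchor, differed by -0.08 ± 0.07 with overlapping arrays. Without late high pool 1 the median of complex II was -0.14, with 3 of 4 genes below 0. With no scaling between arrays, which moved the median of all probes to 0.13, it was -0.11, again with 3 of 4 below 0, and with the slide as a fixed block it was -0.12, with 2 of 4 below 0, beside -0.09 over all probes and -0.10 for complex V.

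**Figure D2:**
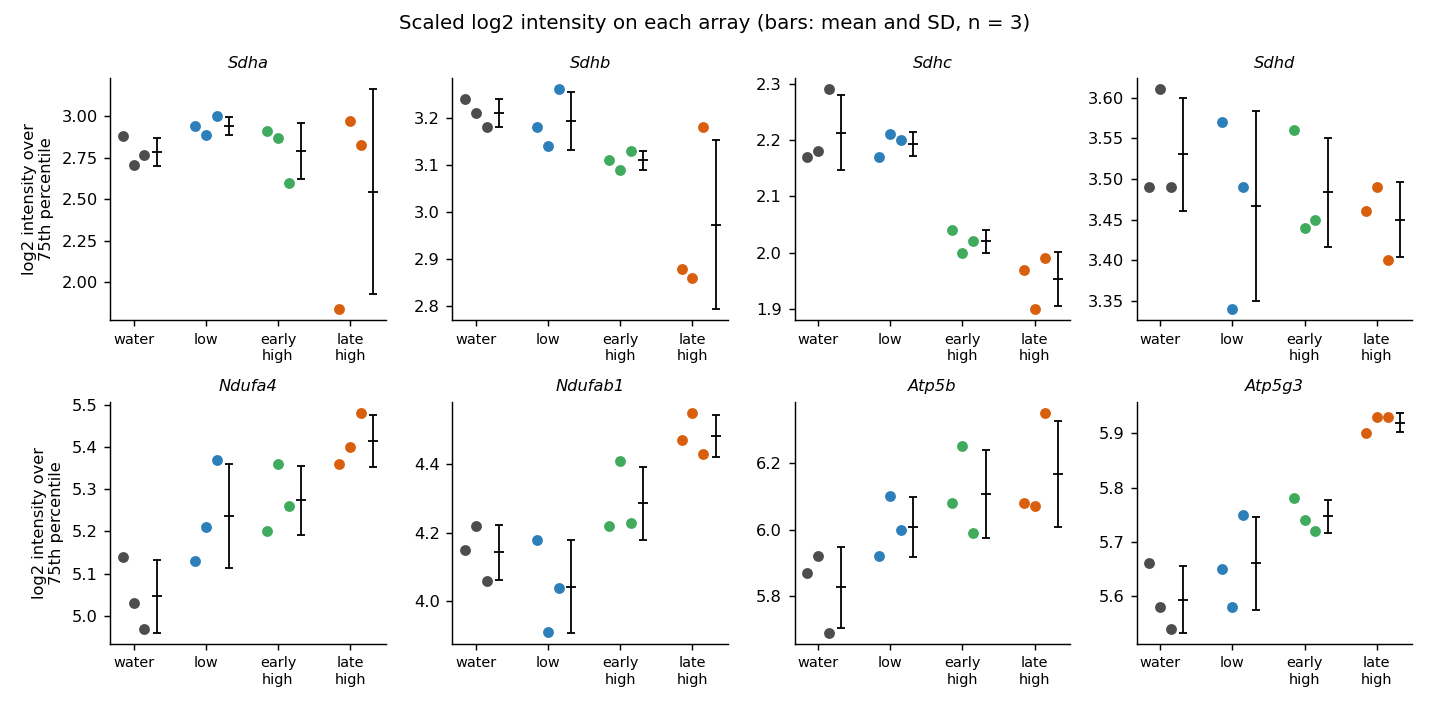
Scaled log2 intensity on each array (dots) is plotted by group for the 4 complex II genes and for Ndufa4, Ndufab1, Atp5b and Atp5g3, with mean and SD of 3 arrays beside each group. Each panel has its own vertical range. On this scale, but not without scaling between arrays, the groups of Sdhc are apart, between 1.90 and 2.04 in the high drinkers and between 2.17 and 2.29 in water and low pools, and Atp5g3 is highest in the late high pools (5.90 to 5.93).

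Genes of complex V did not differ one way: 9 of 17 were above 0 and the median difference was 0.00. Atp5g3, which encodes the ring subunit c, had the smallest p of the set. It was at 5.66, 5.58 and 5.54 in water, 5.65, 5.58 and 5.75 in low, 5.78, 5.74 and 5.72 in early high and 5.90, 5.93 and 5.93 in late high pools. The late high arrays lay above all other arrays, 0.32 ± 0.06 above water (limma adjusted p = 0.0912). The genes Atp5g1 and Atp5g2, for the same mature protein, differed by -0.04 ± 0.06 and -0.11 ± 0.07, and their late high and water arrays overlapped. Within slide 3, Atp5g3 was 0.20 above the 1 early high pool, and with the slide as a fixed block the difference from water was 0.35 (limma adjusted p = 0.644).

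Atp5b was higher on its brightest probe and lower on the next. The brightest probe was at 5.87, 5.92 and 5.69 in water and at 6.08, 6.07 and 6.35 in late high pools, a difference of 0.34 ± 0.10 (limma adjusted p = 0.174). The next brightest was at 4.35, 4.41 and 4.44 in water and at 4.19, 4.27 and 4.29 in late high pools, a difference of -0.15 ± 0.06 (limma adjusted p = 0.295). Each probe separated the groups, in opposite directions, and the third Atp5b probe differed by -0.01. Atp5l, the small g subunit of the membrane part, differed by -0.12 ± 0.05 (limma adjusted p = 0.283), and its difference was 0.00 with no scaling. The core subunits Atp5a1, Atp5c1 and Atp5o differed by 0.09 ± 0.05, 0.15 ± 0.08 and 0.16 ± 0.08.

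In complex I, 26 of 39 genes were above 0 in late high pools and the median difference was 0.07, where 51.2% of all probes were above 0. That median was 0.03 without water pool 3 or without late high pool 2, and 0.02 with the slide and 0.01 with the scan day as a fixed block, beside -0.09 and -0.10 over all probes. With no scaling between arrays it was 0.20, beside 0.13 over all probes. Ndufa4 was at 5.36, 5.4 and 5.48 in late high pools, all above the water arrays given above, by 0.37 ± 0.08 (limma adjusted p = 0.109). With the slide as a fixed block this was 0.23 (limma adjusted p = 0.787). Ndufab1, the acyl carrier protein of mitochondria, was at 4.15, 4.22 and 4.06 in water, 4.18, 3.91 and 4.04 in low, 4.22, 4.41 and 4.23 in early high and 4.47, 4.55 and 4.43 in late high pools. The late high arrays were above all others, with a difference from water of 0.34 ± 0.08 (limma adjusted p = 0.125). Its other tested probes, which were dimmer, differed by -0.09 ± 0.09 and -0.08 ± 0.06. The flavoprotein subunit gene Ndufv3 (0.21), Ndufb9 (0.18), Ndufb10 (0.16) and the core subunit Ndufs7 (0.16) were also at an unadjusted p under 0.05. The large core subunits Ndufs1 and Ndufv1 differed by -0.07 ± 0.05 and 0.00 ± 0.09.

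In complex III 1 of 7 genes and in complex IV 3 of 18 were at an unadjusted p under 0.05, which is near the 15.9% of all probes. Uqcrc1, a core protein of complex III, was 0.14 ± 0.06 higher (limma adjusted p = 0.309), and Uqcrfs1, the Rieske protein, differed by 0.16 ± 0.09. In complex IV, Cox5a was 0.19 ± 0.06 higher (limma adjusted p = 0.214), at 6.12, 6.0 and 5.91 in water and 6.15, 6.22 and 6.22 in late high pools. Cox7a2l, a supercomplex factor, was 0.17 ± 0.07 higher with overlapping arrays. Cox4i1 and Cox5b differed by 0.00 ± 0.08 and -0.09 ± 0.12, and Cox6a2 by 0.34 ± 0.16, which turned to -0.30 with the slide as a fixed block. Cox4nb, which is no subunit, was 0.25 ± 0.05 higher (limma adjusted p = 0.111) on its brighter probe and differed by -0.01 ± 0.07 on the other.

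**Figure D3:**
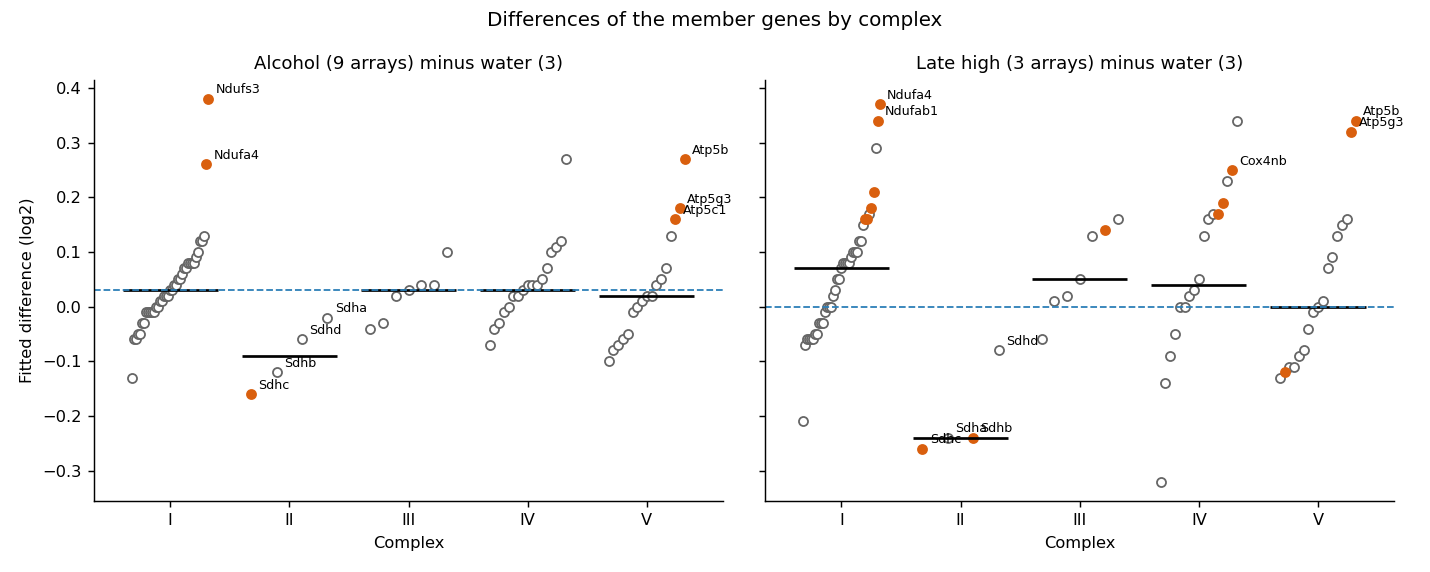
Fitted differences in log2 units of the member genes (dots) by complex are plotted for all alcohol pools against water and for late high pools against water. Filled dots have an unadjusted p under 0.05, black lines are medians of a complex, the dashed line is the median of all probes, and Cox4i2 (-0.68 and -1.42) lies outside the range drawn. No dot passed an adjusted p of 0.05, and the complex II median is at -0.09 on the left and -0.24 on the right.

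Probes of one gene did not always point one way. Of 28 genes with 2 or more tested probes, 12 had probes on both sides of 0 in late high against water and 8 in alcohol against water. Of 48 pairs of probes of one gene, 8 shared a run of at least 20 bases, among them the probes of Ndufs6, which differed by 0.13, 0.10 and 0.18. The genes for which a brightest probe at an unadjusted p under 0.05 stood against a dimmer one of opposite sign were Atp5b, Ndufab1, Ndufv3 and Cox4nb.

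**Figure D4:**
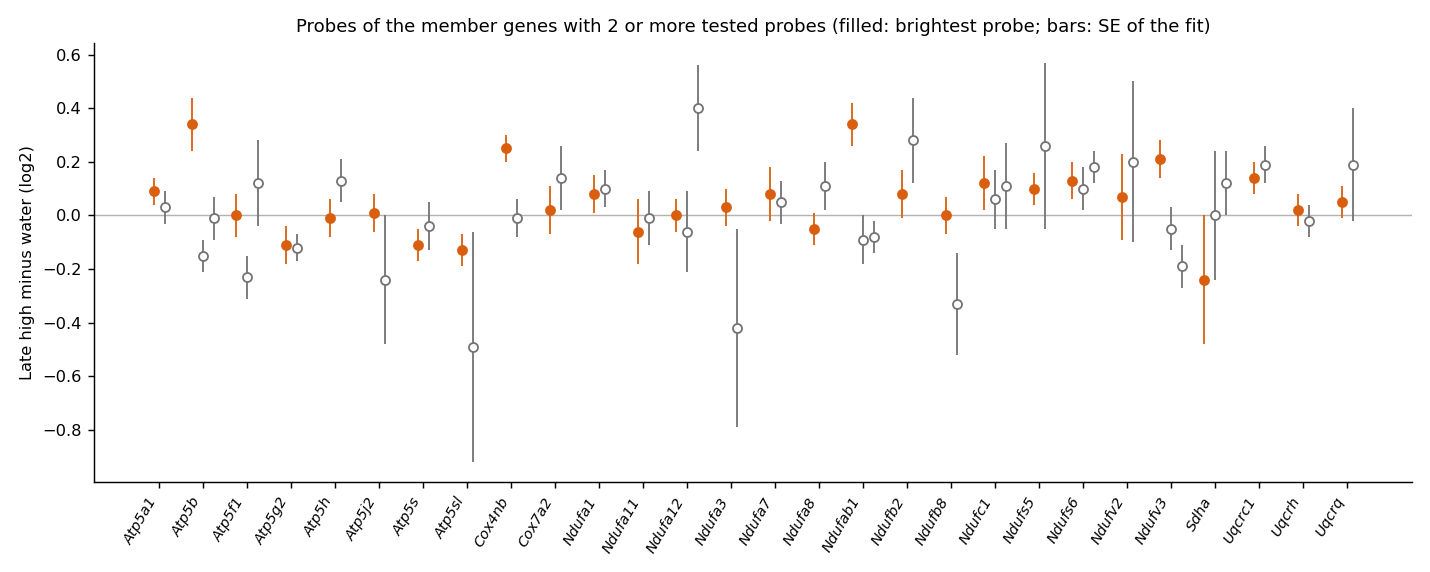
For each of the 28 genes with 2 or more tested probes, the late high minus water difference of every tested probe is plotted in log2 units with the SE of the fit, with the brightest probe filled. The probes of Atp5b lie at 0.34, -0.15 and -0.01 and those of Ndufab1 at 0.34, -0.09 and -0.08, while the probes of Ndufs6 lie at 0.13, 0.10 and 0.18.

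In early high drinkers against water no gene passed an adjusted p of 0.05 (limma; 0% of all probes), and 6 (7.06%) were at an unadjusted p under 0.05, against 4.70% of all probes. Sdhc was the 1 lower gene. Ndufs3 (0.48 ± 0.20), Atp5b (0.28 ± 0.10), Ndufa4 (0.23 ± 0.08), Atp5g3 (0.15 ± 0.06) and Cox4nb (0.13 ± 0.05) were higher. With scaling by the median only Sdhc, lower, was at that level (2.37% of all probes higher and 1.52% lower). With no scaling between arrays only Sdhc, lower, and Atp5b, higher, were (2.24% and 1.06%). In low drinkers against water 0 genes passed the adjusted threshold, against 0.218% of all probes, and 3 (3.53%) were at an unadjusted p under 0.05, against 9.08%: Cox6a2 (0.38 ± 0.16), Ndufa4 (0.19 ± 0.08) and Ndufc1 (-0.22 ± 0.10). In early high pools 4 of the 5 anterior pituitary markers were also lower than in water at that level (differences of -4.41 for Prl, -1.82 for Cga, -1.23 for Tshb and -0.40 for Lhb), with a summed level of 0.911 to 3.37 against 3.25 to 12.4 in water. The choroid plexus marker Aqp1 was lower (-0.64). Their part in the differences of the 6 genes was not tested. With scaling by the median 4 genes were at an unadjusted p under 0.05 in low pools against water, all lower (6.65% of all probes higher and 4.28% lower), and of the 3 genes named above they included Ndufc1 only. These comparisons and the one of late high drinkers share the 3 water pools. Ndufa4 was at that level in each of the 3. When slide was fitted as a fixed block, 0 of the 6 early high genes and 0 of the 3 low genes kept it, nor did Ndufa4 in late high pools. Within slide 1, low pool 1 minus the water pools was 0.06 for Cox6a2, 0.09 for Ndufa4 and -0.16 for Ndufc1. Leaving out single arrays gave 2 (without water pool 3) to 12 genes (without water pool 1) in early high pools, against 3.61% and 4.29% of all probes. There were 3 without early high pool 1 or 2 (3.5% and 3.18% of all probes). In low pools there were 0 without water pool 2 or low pool 3 (6.13% and 5.53% of all probes) and 5 without water pool 1 (6.03%). There was 1 without early high pool 1 or 2 (8.11% and 7.37%).

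The alcohol groups were also compared with each other, which leaves out the water pools. Early high against low drinkers gave 0 genes at an adjusted p under 0.05 (limma; 0.00632% of all probes) and 4 (4.71%) at an unadjusted p under 0.05, against 5.10%. They were Ndufc1 (0.29 ± 0.10), Ndufab1 (0.24 ± 0.08), Cox4nb (0.16 ± 0.05) and Sdhc (-0.17 ± 0.05). Within slide 2, where 2 pools of each group lay, the differences were 0.39, 0.34, 0.20 and -0.18. Each kept an unadjusted p under 0.05 with the slide as a fixed block. With no scaling or scaling by the median the other 3 kept it and Sdhc, at -0.12 and -0.08, did not, and with normexp background correction Cox4nb did not. The summed level of the 5 anterior pituitary markers was 6.90 to 9.40 times the 75th percentile in low and 0.911 to 3.37 in early high pools, without overlap, and 4 of the 5 markers were lower at an unadjusted p under 0.05. So was 1 of the 5 choroid plexus markers tested. Their part in the differences of these 4 genes was not tested. Late high against early high drinkers gave 0 genes at the adjusted threshold (0% of all probes) and 3 (3.53%, against 12.4%) at an unadjusted p under 0.05, namely Cox7a2l (0.21 ± 0.07), Ndufab1 (0.19 ± 0.08) and Atp5g3 (0.17 ± 0.06). With no scaling between arrays there were 19, all higher, beside 13.9% of all probes higher and 2.61% lower, and with normexp background correction 6, all higher, beside 3.67% higher and 9.49% lower. With scaling by the median there was 1, Cox7a2l, beside 5.54% and 4.53% of all probes. A fixed slide block left 0 of the 3 genes at that level, beside 1.94% and 2.85% of all probes. The anterior pituitary sum was 0.911 to 3.37 in early high and 3.93 to 6.44 in late high pools, without overlap, and 2 of its 5 markers, Cga (1.76) and Tshb (1.39), were higher at an unadjusted p under 0.05. So was the thalamic marker Tcf7l2 (0.78), and the choroid plexus marker Clic6 was lower (-0.23). Their part in these differences was not tested. Without late high pool 2 there was 1 gene (1.18%) at that level, against 8.13% of all probes. Without early high pool 2 or late high pool 3 there were 5 (5.88%), against 8.55% and 15%. A test over the 4 groups together called 0 genes (limma F test, smallest adjusted p = 0.124; 0.00632% of all probes) and placed 7 (8.24%) at an unadjusted p under 0.05, against 14.4%. Those were Sdhc, Atp5g3, Cox4nb, Ndufab1, Ndufa4, Ndufc1 and Atp5b. Without water pool 1 there were 16 (18.8%), against 14.1% of all probes.

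Probes for transcripts of the mitochondrial genome, whose proteins join the nuclear subunits in complexes I, III, IV and V, were read beside the set. Of the 4 such probes, 0 passed an adjusted p of 0.05 in any of the 7 comparisons. In alcohol against water their median difference was 0.16, against 0.03 over all probes. It was 0.13 in low, 0.23 in early high and 0.11 in late high pools against water (all probes 0.04, 0.02 and 0.00), and -0.12 in late high against early high (all probes -0.03). At an unadjusted p under 0.05 were 1, 3 and 1 of the 4 in low, early high and late high against water, all higher, where 9.08%, 4.70% and 15.9% of all probes were at that level in either direction. The probe for cytochrome b (CYTB) was at 7.53, 7.47 and 7.32 in water and from 7.56 to 7.74 in the alcohol pools. Its 9 alcohol arrays all lay above the water arrays, with a fitted difference of 0.19 ± 0.05 (limma adjusted p = 0.819). The summed level of the 4 probes, on the scale of the muscle sums above, was 614 to 686 in water pools. It was 666 in low pool 1, which shared slide 1 with them. On slide 2 it was 726 and 764 in low pools and 801 and 813 in early high pools. On slide 3 it was 710 in the early high pool and 688 to 723 in late high pools. The part of the slide in these differences was not tested.

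Genes around the complexes were read from lists. None of their genes passed an adjusted p of 0.05 in these comparisons. At an unadjusted p under 0.05 in late high against water, 2 of 19, 3 of 15, 1 of 18 and 2 of 17 genes of the lists that follow are named, where 15.9% of all probes were at that level, so these counts are no result about the lists. Of 19 assembly factors outside the name rule, 2 were higher in late high pools than in water at an unadjusted p under 0.05 (Sco1, which carries copper to complex IV, by 0.27, and Cox19, by 0.15) and 0 lower. Among 15 tested electron carriers and ubiquinone genes, Cyc1 (0.15) and Dhodh (0.19) were higher and Coq6 (-0.27) lower. Of 18 tricarboxylic acid cycle genes 1 was lower, Idh3b (-0.20), and the median over them was -0.02. Among 17 tested regulators of mitochondrial biogenesis, Yy1 was higher (0.36) and Tfam, which maintains mitochondrial DNA, lower (-0.25).

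Markers of other cells and regions were summed on each array, and none of them passed an adjusted p of 0.05 in late high pools against water (limma). The summed level of 5 thalamic markers was 10.4 to 11.9 times the 75th percentile in water and 12.3 to 19.6 in late high pools, that of 6 oligodendrocyte markers 188 to 210 and 206 to 244, and that of 6 neuronal markers 126 to 133 and 133 to 137. The choroid plexus sum was 2.51 to 3.22 in water and 2.21 to 2.49 in late high pools, and the anterior pituitary sum 3.25 to 12.4 and 3.93 to 6.44. The late high and water arrays did not overlap in the thalamic and choroid plexus sums, and overlapped in the oligodendrocyte and pituitary sums. Every marker of these lists that was on the array was well above background on at least 1 array. Their part in the differences of the oxidative phosphorylation genes was not tested, and in pooled tissue fewer cells of a type and less RNA per cell cannot be told apart.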

How the data were processed

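Total RNA of hypothalamus pools was labelled with Cy3 and hybridised to 12 1-color Agilent arrays. The authors deposited the scanner output, in which Feature Extraction (version 10.5.1.1 per the file headers) gives a background-corrected signal intensity on a linear scale, and a table of the same intensity values, unscaled between arrays (100% of its probes were within 0.01 log2 of the scanner values). Groups came from the labels. Spots flagged as non-uniform, or whose signal was under 2 times its error, were left out, and replicate spots averaged. Values were log2 intensity after subtraction of each array's 75th percentile, taken over 43379 spots without controls (1512 to 1853 on the linear scale). Probes had to be present on at least 2 of 3 arrays in each of the 4 groups (31622 probes), or in over 50% of the water and of the alcohol arrays (32376 probes).

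Differences were tested with limma 3.58.1 in R 4.3.3 (lmFit, eBayes) over all probes with Benjamini-Hochberg adjustment, with water against alcohol in one fit and 4 groups in the other. On simulated data with 200 of 32376 probes moved by 1 log2 unit, 160 were called in alcohol against water, and 138 over the 4 groups (31622 probes), with 10 and 8 unmoved probes called. Smaller differences were not simulated, and the number of arrays limits the precision. Genes were named by the array's symbols, and 85 of 86 matched RefSeq. Named were core subunits, paralogous isoforms, the 3 highest and 3 lowest differences per comparison at an unadjusted p under 0.05 (in the 4-group test, all of them) and the highest and lowest member of each complex where a result turned on it; other genes at that level were added after their values were seen. The members and lists were chosen with earlier results of these data known. Alternatives changed scaling, background, filter, probe choice, slide, scan day, block and single arrays. Promoters were searched with Python 3.11.15, and figures drawn with matplotlib 3.10.9. The same-numbered pools of different groups did not deviate together (r = -0.09 to 0.18 over 18 pairs), so numbers were not taken as pairs.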

Additional observations from a re-analysis of the deposited data

Results flagged for a closer look

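Among the 9 alcohol arrays, 1 array stood far from the others in 5 of 47 measures (single genes and medians of complexes), where chance gives about 1 in 20, or 2.35. For Sdha this was late high pool 1, at 1.84 with the next array at 2.60 (gap over range 0.654), and the complex II median above includes it. Low pool 1 was the lowest array for Atp5j (5.88, next 6.03, gap over range 0.676), Atp5o (4.91, next 5.09, 0.741) and Ndufs7 (4.89, next 5.03, 0.545). That pool is the 1 alcohol pool on the slide of the water pools. Low pool 2 was the lowest for Ndufv1 (4.24, next 4.44, 0.51).

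Among the same 47 measures, 5 genes had every pool of one alcohol group above the water mean and every pool of another below it. How many of all probes do so was not computed. Cox4nb and Ndufc1 were among the measures because of their differences between groups. The count is therefore no result about the set. Cox4nb was above in early high and below in low pools (difference between the group means 0.16) and above in late high pools (0.28 from low). Uqcrfs1 had the same pattern, with 0.18 and 0.27. Late high pools were above and low pools below for Ndufc1 (0.33) and Uqcrb (0.23), and low pools above and late high pools below for Cox6b2 (0.25). Cox6c, which was not among those measures and was chosen after its values were seen, had low pools at 4.37, 4.17 and 4.35 and late high pools at 4.63, 4.61 and 4.69, on either side of a water mean of 4.42. Early high against low was tested for Cox4nb (limma adjusted p = 0.836) and Uqcrfs1 (0.923), with neither past the threshold, and the difference between late high and low pools was not tested.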

How the results depend on the processing

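No member passed an adjusted p of 0.05 (limma) in any comparison under any change of scaling, background correction, filter, probe choice, slide, scan day or replicate block. The exceptions were arrays left out one at a time: counts ran from 0 to 2 over the 4 groups (without low pool 1, Ndufab1 with adjusted p = 0.0342 and Sdhc with 0.0492) and from 0 to 2 in late high against water (without late high pool 3, Sdhb with 0.0298 and Ndufa10 with 0.0373, the latter named after its values were seen), and stayed 0 in the other comparisons.

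Medians of the set moved by more than the SD between arrays (0.0393) with scaling and slide. With scaling by the median they were -0.03 in alcohol (all probes -0.03), -0.13 in low and -0.03 in early high against water. They were 0.10 in early high against low and 0.09 in late high against early high. With no scaling they were -0.06 in low and 0.16 in late high against water, 0.06 in early high against low and 0.17 in late high against early high, with medians of all probes of 0.13 in late high against water and in late high against early high. With the slide as a fixed block they were -0.03 in alcohol (all probes -0.01) and -0.01 in late high against water (all probes -0.09). In low and early high against water they were -0.03 and -0.04. With the scan day they were -0.03 in alcohol (all probes -0.01) and -0.05 in late high (all probes -0.10), and -0.03 and -0.06 in low and early high. Leaving out single arrays gave 0.00 to 0.05 in alcohol and in late high against water. The other 140 medians and 182 counts, and the 144 values of the 6 genes of alcohol against water, kept their direction or stayed within the SD.

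Counts of members at an unadjusted p under 0.05 are given with the share of all probes at that level in parentheses. In alcohol against water the count was 6 (5.53%), with 11 in the methods' t-test (5.21%), 2 with no scaling (5.05%), 1 with scaling by the median (6.08%), 1 with slide as a random block (1.59%), and 0 with slide (2.10%) or scan day (1.68%) as fixed blocks. In late high against water it was 15 (15.9%), with 25 with no scaling (17.2%), 9 with scaling by the median (11.9%), and 2 with slide (7.77%) and 4 with scan day (16.7%) as fixed blocks. In late high against early high it was 3 (12.4%), with 19 with no scaling (16.5%), 6 with normexp background correction (13.2%), 1 with scaling by the median (10.1%) and 1 with a fixed slide block (4.79%). In early high against water it was 6 (4.70%), with 2 with no scaling (3.30%), 1 with scaling by the median (3.89%), and 1 with slide (6.94%) and 3 with scan day (8.08%) as fixed blocks. In low against water it was 3 (9.08%; 2 higher and 1 lower), with 4, all lower, with scaling by the median (10.9%), 1 with no scaling (7.92%), 1 with normexp (11.4%), and 0 with slide (2.99%) or scan day (3.27%). Over the 4 groups it was 7 (14.4%), with 23 with no scaling (15.8%), 14 with scaling by the median (14.5%) and 3 with a fixed slide block (7.84%). In early high against low it was 4 (5.10%), with 3 with no scaling (3.74%) and 5 with scaling by the median (6.01%). Leaving out single arrays gave 1 to 12 genes in alcohol (3.73% to 9.04%) and 8 to 21 in late high against water (11.3% to 18.3%). It gave 2 to 12 in early high (3.18% to 8.12%) and 0 to 5 in low against water (3.64% to 20.4%). Late high against early high had 1 to 5 (7.26% to 15%) and early high against low 3 to 5 (3.91% to 14.2%). The 4 groups had 5 to 16 (8.88% to 25.1%). The ends of each range of shares do not pair with those of the count. The replicate block gave 5 genes at that level in alcohol (5.41%) and 12 in late high against water (15.1%). It gave 0 at an adjusted p under 0.05 and changed no call. Low signal limited only Cox8c and Cox4i2.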
